A study of Danio rerio with 4 samples.

Results

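Crystallins are the structural proteins of the eye lens, and their genes were followed here in whole zebrafish embryos that had received a short heat shock with or without an inducible human oncogene. The features of the array were taken as crystallin features when the zebrafish symbol in the authors' annotation began with crya, cryb or cryg, or when the zebrafish or human description contained the word crystallin. This gave 87 of 37176 features: 2 alpha, 21 beta, 24 gamma and 27 gamma M features, and 13 others that carry the word without being lens crystallins of these classes. The others were features for hspb8, a small heat shock protein with an alpha-crystallin domain, for the quinone oxidoreductase cryz (zeta crystallin) and its relative cryzl1, for CRYM (mu crystallin, a thyroid hormone binding protein) and CRYL1 (lambda crystallin, a sugar dehydrogenase), and for a homologue of human AIM1, which holds beta-gamma crystallin motifs. They are described apart from the lens classes.

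One genotype carried Tg(hsp70-hRASG12V), a mutant human RAS gene behind a heat-inducible hsp70 promoter, and are called transgenic; the design text calls them heterogeneous and the labels give no further allele or line. The controls were wild-type embryos, whose titles carry the tag ab. All embryos grew at 28.5 °C, received 1 h of 37 °C when 24 hours old, went back to 28.5 °C and were collected at 30 hours. Each genotype had 2 arrays; the design text gives pools of 50 embryos and 3 replicates. Strain background and clutch cannot be told apart from the transgene with these labels, and a whole-embryo value cannot tell fewer lens cells from less RNA in each.

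Alpha crystallins are chaperones related to small heat shock proteins, and cryaa is known as the lens member while alpha B crystallins also occur in muscle and other tissues. Beta and gamma crystallins share a fold and fill the fibre cells, where their dense packing gives the lens its refractive power. Gamma M crystallins are rich in methionine, are known from fishes, and in zebrafish are encoded by a large cluster of closely related genes. During the hours sampled here the zebrafish lens leaves the surface ectoderm and its first fibre cells elongate and take up crystallin synthesis. The zebrafish hsp70 promoter is also known for activity in the developing lens without heat shock.

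The values are log2 expression values per array feature. Array medians were 9.62 and 9.61 in transgenic and 9.5 and 9.55 in wild-type embryos, and the lowest 25th percentile of an array was 7.05. Features with both genotype means under 7.05 are called dim here, because an unknown share of such a value is background. Of 18 whole-embryo marker genes found, 16 lay above 9.56, the median of the feature means. Among the lens markers of that list, mipa, the fibre cell aquaporin, read 13.61 and 13.33 in transgenic and 13.78 and 13.63 in wild-type embryos. Lens RNA was therefore measured on all 4 arrays. The lens marker foxe3 had a mean of 7.65, below that median. Of the heart markers, myl7 was dim, with a mean of 6.17, while cmlc1 had a mean of 12.59. Among all features, 17.6% passed a Benjamini-Hochberg adjusted p of 0.05 in limma, 10.3% higher and 7.28% lower in transgenic embryos. When either transgenic array was left out, no feature of the whole array passed. Every call below therefore rests on having both transgenic arrays.

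The crystallin features passed the test at about the rate of all features, though not with a mean-variance trend or a filter on dim features. Of the 87 crystallin features, 15 passed the test, 4 higher and 11 lower in transgenic embryos, a share of 17.2% against the 17.6% of all features. The arrays of the genotypes did not overlap for 49.4% of crystallin features, against 67.6% of all features. Among the 74 alpha, beta, gamma and gamma M features, 3 were higher and 8 lower, with a median log2 fold change of 0.01, the same as the 0.01 over all features. The count of 15 became 24 without wild-type replicate 2, when 32.7% of all features passed. By the authors' q-values under 0.05, in the authors' deposited table, 57 crystallin features passed, beside 67.7% of all features.

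**Figure D1:**
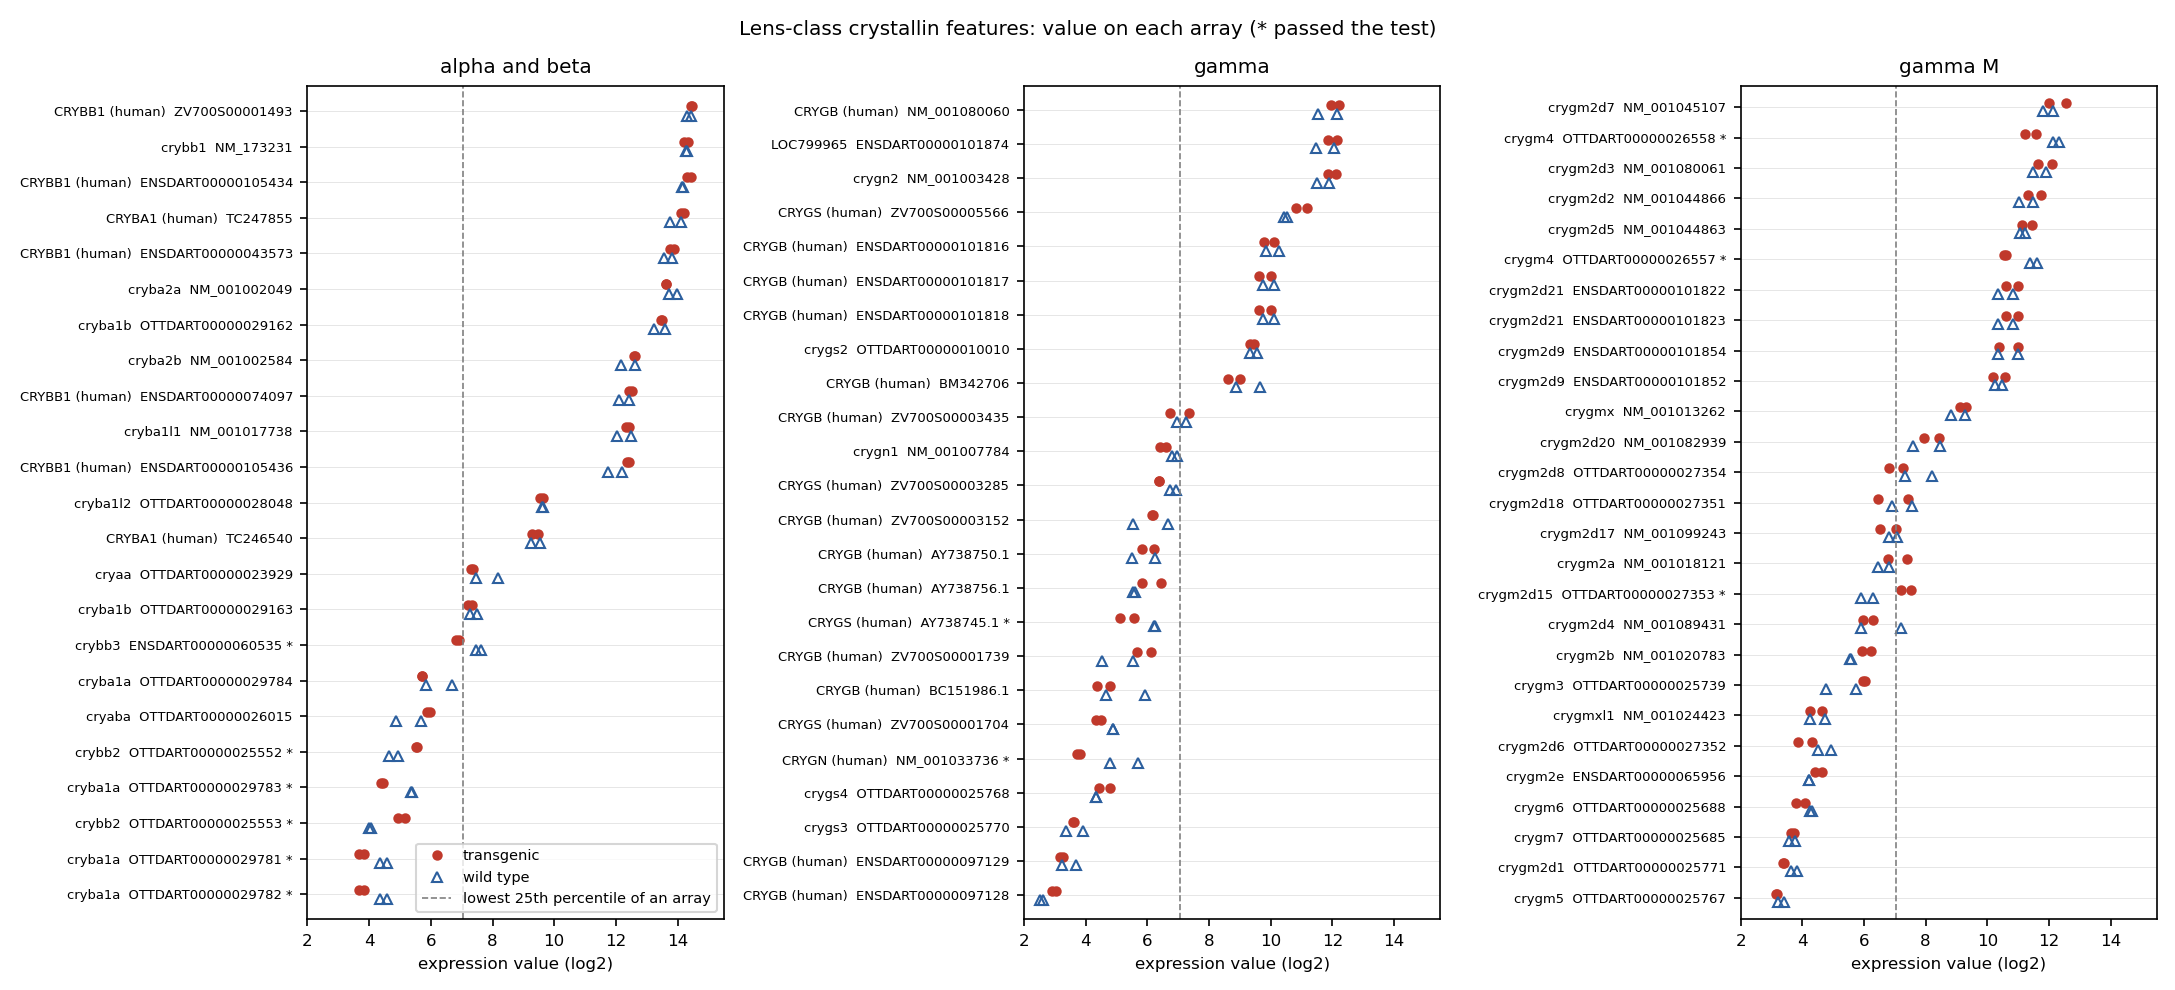
Log2 expression value on each array (x axis) of the 74 alpha, beta, gamma and gamma M crystallin features (rows, ordered by mean), with filled circles for the 2 transgenic and open triangles for the 2 wild-type arrays; the dashed line is the lowest 25th percentile of an array, 7.05, and an asterisk marks features that passed the test. Right of the median level of all features, 9.56, only the crygm4 features passed, and 9 of the 11 marked features have at least 1 genotype mean left of the line. Names ending in (human) are human ortholog names given where the feature had no current zebrafish symbol, and rows are not comparable in level because each feature has its own probes.

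Most of the calls lay at low signal. Of the 29 lens-class features whose mean lay above the median of all features, 2 passed (6.9%, against 13.5% of all features at that level), both of them for crygm4. The other 27 had log2 fold changes from -0.23 to 0.53, with SEs from 0.14 to 0.31. All 27 of their 95% confidence intervals lay inside 2-fold in either direction, from -0.78 at the lowest to 0.99 at the highest. These 27 were singled out after their values were seen, and a missing call does not show equal levels. Of the 32 dim lens-class features, 7 passed, and the background at that level was 14.3%.

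**Figure D2:**
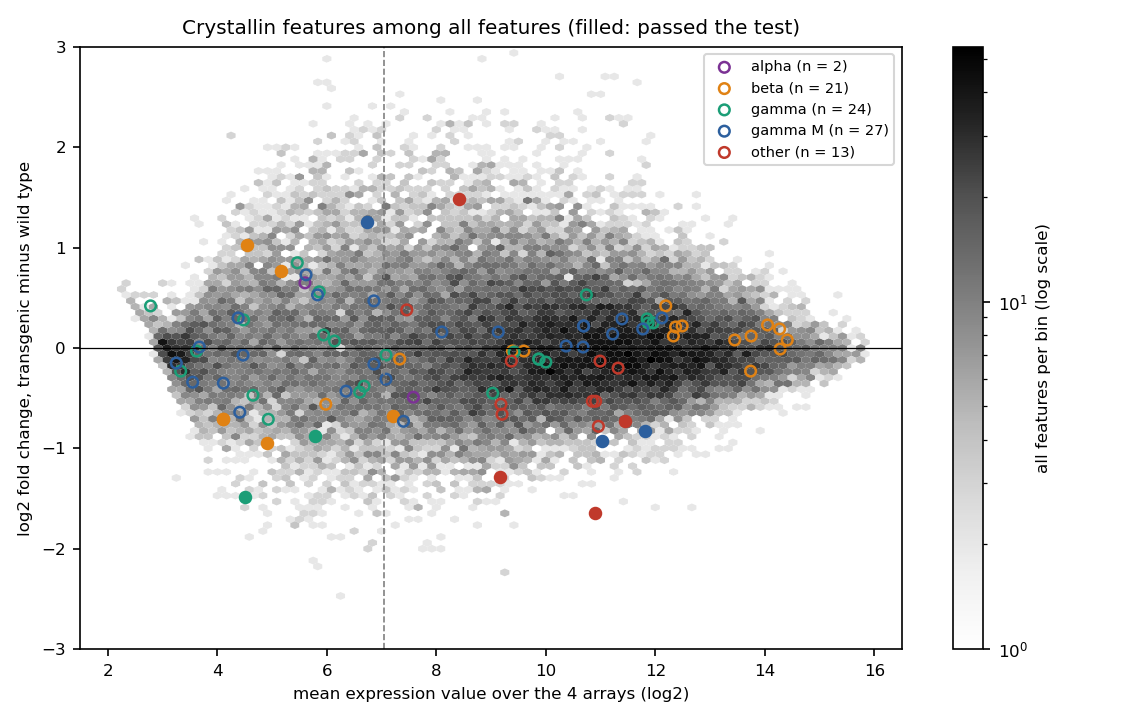
Log2 fold change, transgenic minus wild type (y axis), against the mean log2 expression value over the 4 arrays (x axis) for all features (grey bins, darker for more features on a log scale) and for the 87 crystallin features by class, filled where they passed the test. Beyond a mean of 12 the crystallin features lie within 0.42 of zero, while the changed lens-class features other than crygm4 lie near or left of the dashed line at 7.05.

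Both alpha crystallin features missed the threshold with all 4 arrays. The lens chaperone gene cryaa read 7.36 and 7.31 in transgenic and 8.18 and 7.48 in wild-type embryos. Its difference was -0.49 ± 0.26 (log2 difference with its SE from the limma fit, 2 arrays in each genotype, adjusted p = 0.24), and the gap between the wild-type arrays exceeded that difference. The feature of cryaba, the alpha B gene formerly called cryab, was dim, with 5.88 and 5.97 in transgenic and 4.87 and 5.67 in wild-type embryos. Its difference was 0.65 ± 0.29 (adjusted p = 0.18). For both genes the arrays of the genotypes did not overlap, as for 67.6% of all features, and the directions were opposite. The size of both differences depended on which wild-type array was kept. Without wild-type replicate 2 cryaa differed by -0.84 and cryaba by 1.05, and without wild-type replicate 1 by -0.14 and 0.25.

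Most beta crystallin features gave high signal and small differences. The crybb1 feature, for a major basic beta crystallin, read 14.33 and 14.22 in transgenic and 14.32 and 14.26 in wild-type embryos (-0.01 ± 0.14, adjusted p = 0.96). Another 5 features had CRYBB1 as human ortholog name, 4 of them under a record that the current gene table does not hold. Over all 6 the log2 fold change ran from -0.01 to 0.42, with 0 passing. The genotypes did not overlap in 2 of the 6, both higher in transgenic embryos, against 67.6% of all features. The largest of these differences was in a feature with 12.36 and 12.43 in transgenic and 11.74 and 12.21 in wild-type embryos (0.42 ± 0.2, adjusted p = 0.2). It passed without wild-type replicate 2 (0.65, adjusted p = 0.033) and was 0.18 without wild-type replicate 1.

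The acidic beta A genes gave the same picture wherever their signal was high. The brighter feature of cryba1b read 13.47 and 13.51 in transgenic and 13.59 and 13.24 in wild-type embryos (0.08 ± 0.18). For cryba2a the values were 13.63 and 13.61 in transgenic and 13.98 and 13.73 in wild-type embryos (-0.23 ± 0.16, adjusted p = 0.33), and for its paralog cryba2b 12.62 and 12.6 in transgenic against 12.61 and 12.15 in wild-type embryos (0.22 ± 0.2, adjusted p = 0.46). A feature named for human CRYBA1 and CRYBA4 read 14.12 and 14.22 in transgenic and 14.12 and 13.76 in wild-type embryos (0.23 ± 0.18). The genes cryba1l1 and cryba1l2 differed by 0.12 ± 0.19 and -0.03 ± 0.14.

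Calls within the beta class fell on 3 genes with low signal. The features of crybb2, a basic beta crystallin, were both dim and both higher: 5.56 and 5.53 in transgenic against 4.65 and 4.92 in wild-type embryos for the first (0.77 ± 0.16, 1.7-fold, adjusted p = 0.038). For the second they were 4.94 and 5.17 in transgenic and 4.06 and 4.0 in wild-type embryos (1.03 ± 0.15, 2.04-fold, adjusted p = 0.021). The call of the first crybb2 feature ended under quantile normalization (adjusted p = 0.054) and with a mean-variance trend (adjusted p = 0.062).

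The gene cryba1a moved the other way. Of its 4 dim features 3 fell, and 2 of those 3 have identical values on every array and so count as 1 measurement. The pair read 3.67 and 3.83 in transgenic and 4.57 and 4.36 in wild-type embryos (-0.71 ± 0.16, adjusted p = 0.043). A further feature read 4.46 and 4.4 in transgenic and 5.36 and 5.4 in wild-type embryos (-0.95 ± 0.14, adjusted p = 0.019), and the last differed by -0.56 ± 0.3 without passing, but by -0.99 without wild-type replicate 1 (adjusted p = 0.017) and by -0.13 without wild-type replicate 2. The basic gene crybb3 also fell, with 6.8 and 6.92 in transgenic and 7.63 and 7.45 in wild-type embryos (-0.68 ± 0.15, 1.6-fold lower, adjusted p = 0.043), its transgenic mean lying below 7.05. The calls of crybb3 and of the identical cryba1a pair ended with the trend and without wild-type replicate 1. Over the 21 beta features the counts were 2 higher, 4 lower and 15 not passed, beside the 17.6% of all features that passed. The identical cryba1a pair makes up 2 of the 4. The median was 0.08. Median centring of the arrays took that median to -0.02, and the median over all features from 0.01 to -0.09.

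Gamma crystallins outside the M group were named for crygn, crygs and human CRYGB. The feature of crygn2, a gamma N gene, read 12.11 and 11.87 in transgenic and 11.9 and 11.5 in wild-type embryos (0.29 ± 0.2, adjusted p = 0.34). Its paralog crygn1 was dim and differed by -0.38 ± 0.16 without passing. Another feature with the human name CRYGN and no zebrafish symbol fell by 1.48 ± 0.33 (2.78-fold lower, adjusted p = 0.043). It was dim in both genotypes, with 3.73 and 3.81 in transgenic and 5.71 and 4.78 in wild-type embryos. The gamma N features thus did not share a direction.

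Gamma S crystallins, which in mammals persist in the adult lens cortex, were split in the same manner. Of 5 features with the human name CRYGS, 1 fell, 0 rose and 4 did not pass, beside the 17.6% of all features that passed. In all 5 the genotypes did not overlap, as in 67.6% of all features, with transgenic embryos above in 2 and below in 3. The fall was in a dim feature without a zebrafish symbol, with 5.12 and 5.57 in transgenic and 6.24 and 6.22 in wild-type embryos (-0.88 ± 0.2, adjusted p = 0.044), and this call ended with the trend and without wild-type replicate 1. The bright feature of the 5 read 11.18 and 10.83 in transgenic and 10.52 and 10.43 in wild-type embryos (0.53 ± 0.18, adjusted p = 0.1). It is also annotated with a second human gene, so its signal cannot be assigned to gamma S alone.

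Features with the human name CRYGB and no current symbol included bright ones with small differences. The brightest read 12.21 and 11.96 in transgenic and 12.14 and 11.53 in wild-type embryos (0.25 ± 0.25, adjusted p = 0.51). A feature that the file calls LOC799965 gave nearly the same values, 12.14 and 11.86 in transgenic and 12.04 and 11.45 in wild-type embryos (0.25 ± 0.25, adjusted p = 0.5). The largest positive differences in the gamma class were in a pair of dim features that did not pass, at 0.85 ± 0.38 (adjusted p = 0.18) and 0.56 ± 0.23 (adjusted p = 0.16). Leaving out wild-type replicate 1 took the first of these to 1.35 (adjusted p = 0.024), and leaving out wild-type replicate 2 took it to 0.35. The feature annotated as crygs2 read 9.46 and 9.34 in transgenic and 9.33 and 9.56 in wild-type embryos. The authors' table gives it the human name LCMT2, a tRNA-modifying methyltransferase, and lcmt2 is the direct neighbour of crygs2 in RefSeq, so which gene this feature measures is uncertain. In all, 0 gamma features were higher, 2 were lower and 22 did not pass, beside the 17.6% of all features that passed. The median was -0.06.

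Gamma M features showed 1 gene with high signal and a clear difference. Both features of crygm4 were lower in transgenic embryos. The first read 10.53 and 10.59 in transgenic and 11.6 and 11.39 in wild-type embryos (-0.93 ± 0.15, 1.91-fold lower, adjusted p = 0.024). The second read 11.22 and 11.57 in transgenic and 12.14 and 12.32 in wild-type embryos (-0.83 ± 0.18, 1.78-fold lower, adjusted p = 0.043). Both calls held under quantile normalization, median centring, a filter on dim features, a mean-variance trend and without either wild-type array.

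The identity of these features is less certain than their difference. The authors' table gives both the human name EFEMP2, an extracellular matrix protein of the fibulin family that is no crystallin. The separate feature of zebrafish efemp2a read 11.85 and 11.72 in transgenic and 11.86 and 12.1 in wild-type embryos (-0.19 ± 0.16, adjusted p = 0.42). In RefSeq crygm4 lies outside the large gamma crystallin cluster, between a locus without a gene name and sowahcb, and not beside efemp2a. Whether the probes read crygm4 or another transcript was not tested, since the probe sequences were not used here.

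The gamma crystallin cluster itself, from crygm7 to crygs3, holds 34 gamma crystallin genes in RefSeq, and 24 of them had 26 crystallin features on the array. Of the 26 features 1 passed, against 17.6% of all features, and it was that of crygm2d15. It read 7.51 and 7.21 in transgenic and 5.92 and 6.28 in wild-type embryos (1.26 ± 0.2, 2.39-fold, adjusted p = 0.023), with a wild-type mean below 7.05. Its neighbours with a feature, crygm2e on one side and crygm2d18 on the other, differed by 0.3 ± 0.16 and -0.31 ± 0.4 and did not pass. The genes of the cluster are close copies of each other, so a feature may read more than 1 of them.

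The 8 cluster features above the median level were annotated to 6 genes, crygm2d5, crygm2d9, crygm2d7, crygm2d3, crygm2d21 and crygm2d2. Since each feature has its own probes, this does not rank the genes by expression. Both features of crygm2d21 have identical values on every array and so count as 1 measurement. In this group crygm2d7 read 12.54 and 11.99 in transgenic and 12.13 and 11.79 in wild-type embryos (0.3 ± 0.25, adjusted p = 0.42). The values of crygm2d3 were 12.09 and 11.64 in transgenic and 11.89 and 11.47 in wild-type embryos (0.19 ± 0.24, adjusted p = 0.6), and those of crygm2d2 were 11.75 and 11.32 in transgenic against 11.48 and 11.01 in wild-type embryos (0.29 ± 0.24, adjusted p = 0.44).

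With both features of the identical crygm2d21 pair counted, all 8 differences were positive, between 0.01 and 0.3. Of the 8, 0 passed, beside the 17.6% of all features that passed. Under quantile normalization or median centring only 6 of the 8 were positive, with the median over all features at -0.05 and -0.09. In all 8 the genotypes overlapped, whereas in 67.6% of all features they did not. Single arrays of 1 genotype lay further apart than the genotype means did. The median gap between arrays was 0.41 in transgenic and 0.45 in wild-type embryos. The median difference between genotype means, which average 2 arrays each, was 0.2. Over all features the gaps were 0.14 in transgenic and 0.24 in wild-type embryos, against a median absolute difference of 0.36. For the 12 beta features above the median level the gaps were 0.08 in transgenic and 0.31 in wild-type embryos, so the wide gap in transgenic embryos was in the gamma features. Without transgenic replicate 1, 4 of the 8 were positive, and without wild-type replicate 2, 3 of the 8 were.

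**Figure D3:**
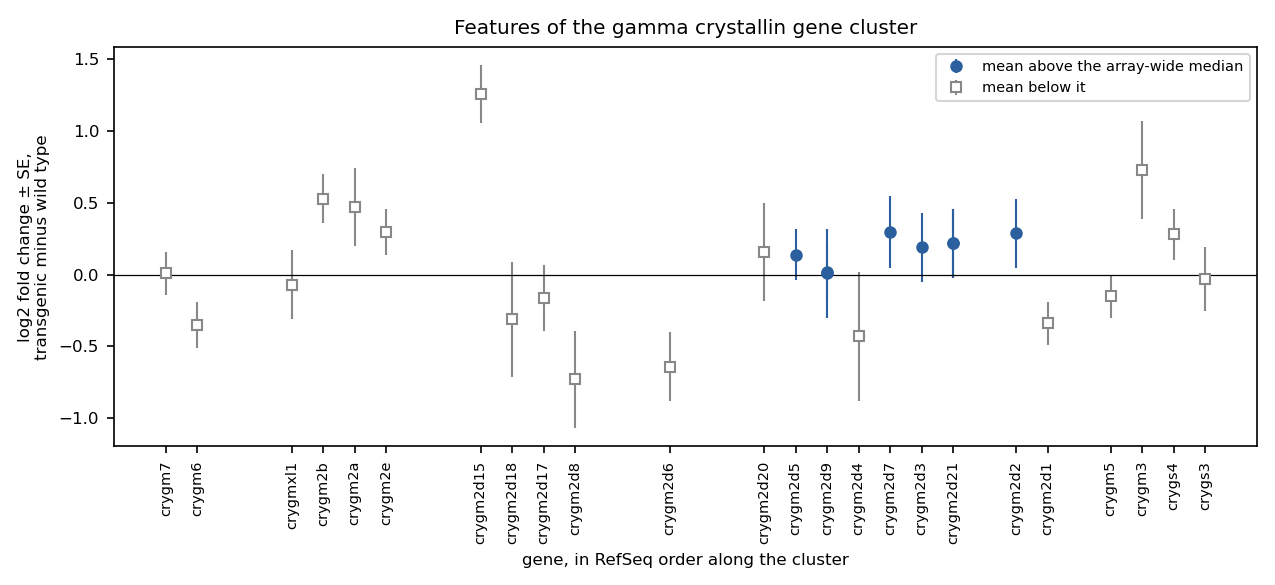
Log2 fold change, transgenic minus wild type, with its SE (y axis) for the 26 crystallin features of the gamma crystallin cluster, placed by the order of their genes in RefSeq (x axis, gaps for genes without a feature; n = 2 arrays per genotype). Filled circles have a mean above the median of all features and lie between 0.01 and 0.3 (2 of the 8 turn negative under either other scaling), and open squares have a lower mean and scatter from -0.73 to 1.26.

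Below the median level the values of the M group lay on both sides of 0. After crygm2d15, crygm3 had the largest positive value, with 6.02 and 5.96 in transgenic and 4.77 and 5.75 in wild-type embryos (0.73 ± 0.34, adjusted p = 0.19). It passed without wild-type replicate 2 (1.22, adjusted p = 0.0083) and was 0.24 without wild-type replicate 1. On the other side crygm2d8 differed by -0.73 ± 0.34 and crygm2d6 by -0.64 ± 0.24, neither passing with all arrays. Without wild-type replicate 2 crygm2d8 differed by -1.16 (adjusted p = 0.023), and without wild-type replicate 1 by -0.3. The features of crygm5, crygm6, crygm7 and crygm2d1 read between 3.16 and 4.32 on every array, far below 7.05. Over the 27 gamma M features the counts were 1 higher, 2 lower and 24 not passed, beside the 17.6% of all features that passed. Their median was 0.02 and became -0.07 under median centring, where the median over all features was -0.09.

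Outside the lens classes the larger differences lay in features of hspb8, cryz and CRYM. Of the 13 features 1 rose, 3 fell and 9 did not pass, beside the 17.6% of all features that passed. Their median was -0.53, against 0.01 for all features. Since 5 of the 13 were for CRYZ and 3 for HSPB8, that median rests mostly on repeated features of these genes. For hspb8, all 3 features had both transgenic arrays below both wild-type arrays, as in 12314 of all 37176 features, and 2 fell. The largest fall was in a feature matched by its human name, with 10.22 and 9.93 in transgenic and 11.56 and 11.88 in wild-type embryos (-1.64 ± 0.19, 3.12-fold lower, adjusted p = 0.013). Another read 11.23 and 10.94 in transgenic and 11.76 and 11.86 in wild-type embryos (-0.73 ± 0.17, adjusted p = 0.045), and the remaining one differed by -0.66 ± 0.2 without passing (adjusted p = 0.086). All 3 differences stayed negative under quantile normalization. Median centring lowers every difference by the same amount in these data, so it could not turn a negative one.

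The zeta crystallin features behaved alike in direction. In all 5 features for cryz or the human name CRYZ, both transgenic arrays lay below both wild-type arrays, as in 12314 of all 37176 features. Of the 5, 1 passed. It read 8.75 and 8.31 in transgenic and 9.99 and 9.65 in wild-type embryos (-1.29 ± 0.22, 2.44-fold lower, adjusted p = 0.026). The next had an adjusted p of 0.051, with 10.76 and 10.38 in transgenic and 11.27 and 11.42 in wild-type embryos (-0.78 ± 0.19). The pair of features with the zebrafish symbol differed by -0.53 ± 0.14 each (adjusted p = 0.067 for both), and 1 of them passed without wild-type replicate 2 (-0.59, adjusted p = 0.043). The 5 differences were negative under quantile normalization too, and median centring could not have turned them. The feature of cryzl1, a relative of cryz, differed by -0.2 ± 0.17 and did not pass.

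Mu crystallin, whose mammalian form binds thyroid hormone in the cytosol, was higher in 1 of 2 features. That feature read 9.03 and 9.3 in transgenic and 8.06 and 7.3 in wild-type embryos (1.49 ± 0.29, 2.8-fold, adjusted p = 0.033). The other differed by 0.38 ± 0.28 and its genotypes overlapped; it was 0.77 without wild-type replicate 1 (adjusted p = 0.031) and -0.01 without wild-type replicate 2. Both carry only the human name CRYM. The lambda crystallin feature and the AIM1 homologue differed by -0.13 ± 0.19 and -0.13 ± 0.16.

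**Figure D4:**
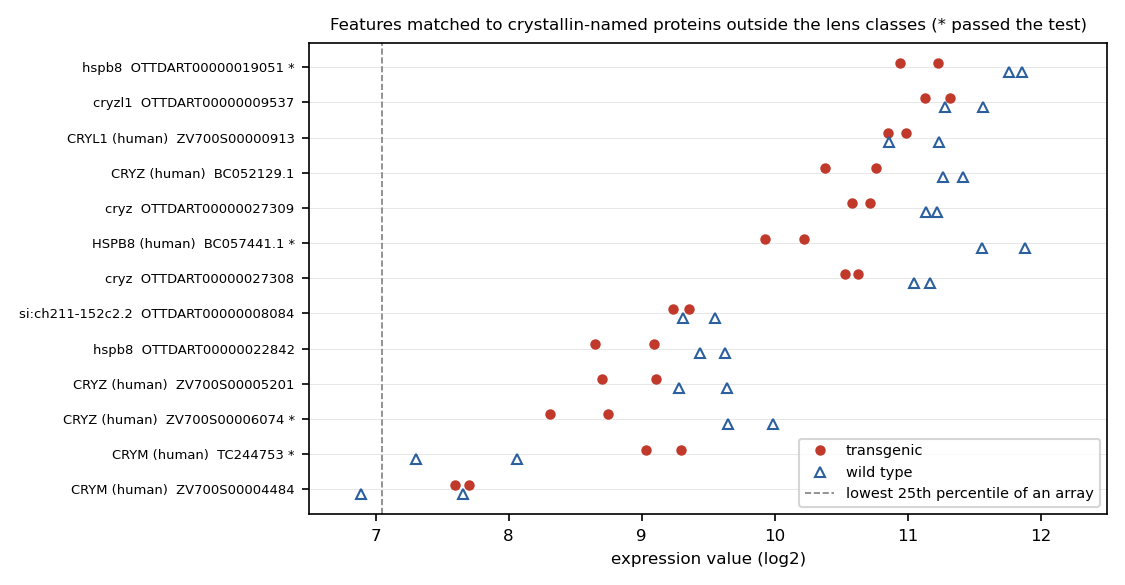
Log2 expression value on each array (x axis) of the 13 features named for crystallins outside the lens classes (rows, ordered by mean), with filled circles for transgenic and open triangles for wild-type arrays and an asterisk for features that passed the test. All 5 CRYZ and all 3 HSPB8 rows have both circles left of both triangles, as 12314 of all 37176 features do, and the upper CRYM row is reversed.

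Other genes of the lens were counted beside the crystallins, each by the feature with the highest mean. Counted in that way, 17.9% of all genes passed. The values are of whole embryos, so they include any RNA of these genes from outside the lens and do not read the lens alone. Of 17 lens transcription factor genes measured, 0 were higher, 2 were lower and 15 did not pass, no more than the share of all genes, with a median of -0.09. The forkhead gene foxe3, needed for the lens epithelium, read 6.78 and 6.98 in transgenic and 8.36 and 8.5 in wild-type embryos (2.93-fold lower, adjusted p = 0.011). Its transgenic mean lay below 7.05. The homeobox gene pitx3 read 10.82 and 10.88 in transgenic and 11.47 and 11.59 in wild-type embryos (1.6-fold lower, adjusted p = 0.038). The eye field gene pax6b, a regulator of crystallin genes, differed by -0.01 ± 0.14, meis1b by -0.16 ± 0.15 and sox3 by -0.2 ± 0.14, and none of these passed.

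Fibre cell genes were counted next. Of 20 fibre cell genes and RNA regulators measured, 1 was higher, 1 was lower and 18 did not pass, also no more than that share, with a median of -0.01. The ephrin receptor gene epha2a, active in lens fibres and in many epithelia, read 11.44 and 11.89 in transgenic and 10.14 and 10.45 in wild-type embryos (1.37 ± 0.22, 2.59-fold, adjusted p = 0.023). The RNA granule gene caprin2 read 7.62 and 7.75 in transgenic and 8.3 and 8.3 in wild-type embryos (-0.62 ± 0.14, adjusted p = 0.046), a call that ended with the trend (adjusted p = 0.1) and without wild-type replicate 1 (adjusted p = 0.052). For mipa the difference was -0.23 ± 0.17 (interval -0.67 to 0.21), for the connexin gene gjc4b 0.14 ± 0.14 and for the N-cadherin gene cdh2 0.39 ± 0.16. The brightest feature of celf1, an RNA-binding regulator of lens fibre cells, differed by -0.13 ± 0.14. The other 4 differed by 0.47 to 1.04, and the dim one among them passed (adjusted p = 0.02). The authors' table gives the brightest feature and the one at 0.47 the human name CUGBP2, and the rest CUGBP1. Which gene the features named CUGBP2 measure is uncertain.

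**Figure D5:**
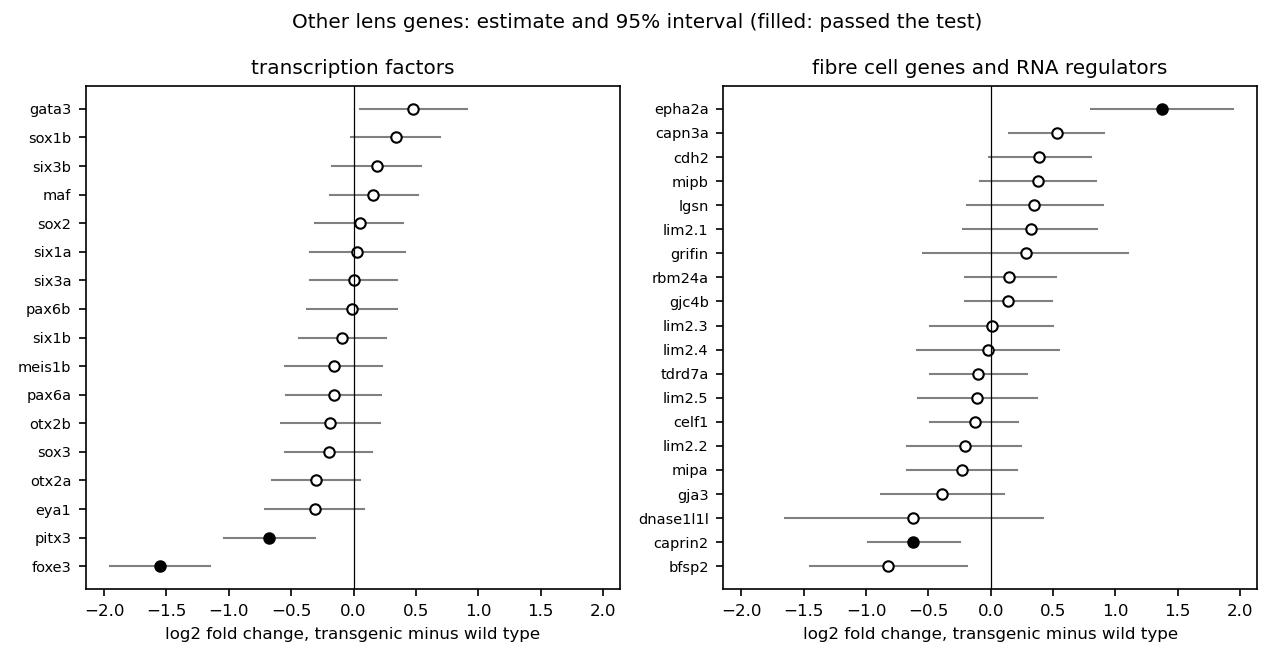
Log2 fold change, transgenic minus wild type, with its 95% confidence interval (x axis) for the 17 lens transcription factor genes and the 20 fibre cell genes and RNA regulators (rows, each by its feature with the highest mean, n = 2 arrays per genotype). The filled points are foxe3, pitx3 and caprin2 below zero and epha2a above it, and the other 33 genes did not pass.

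Retina and small heat shock genes were counted in the same way. Of 10 retina and pigment epithelium genes 1 was higher and 1 lower, near the share of all genes: six6a rose, with 8.67 and 8.66 in transgenic and 8.04 and 7.9 in wild-type embryos (0.69 ± 0.14, adjusted p = 0.037), and rx1 fell, with 12.25 and 12.27 in transgenic against 12.88 and 13.1 in wild-type embryos (-0.73 ± 0.15, adjusted p = 0.038). The six6a call ended under median centring (adjusted p = 0.054) and with the trend (adjusted p = 0.065). Both genes encode homeobox factors. Of 8 small heat shock and heat shock factor genes 0 were higher and 1 was lower, beside the 17.9% of all genes that passed. The lower gene was hspb8, which is also among the crystallin features. The heat shock factor gene hsf1 was counted as not passed by its brightest feature (0.23 ± 0.33). A less bright hsf1 feature passed as lower (-1.74 ± 0.37, adjusted p = 0.039), with a transgenic mean below 7.05. The remaining hsf1 features differed by -0.18 ± 0.15 and -0.16 ± 0.21 and did not pass. The retina list had a median of -0.41 and the small heat shock list of -0.28. Their part in the values of the crystallin features was not tested.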

How the data were processed

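Whole-embryo RNA was hybridised by Roche NimbleGen after Cy3 labelling, according to the protocols in the labels. The authors deposited log2 expression values for 37176 features on 4 arrays; base 2 is inferred from the top of the range. Not given in the sources used here: background correction, summarisation and normalization; detection calls and batches were not used. The authors' deposited table adds, by its header, q-values and a log2 fold change, which equals the difference of group means within 2.8e-08. Per the labels, replicates are numbered, but nothing states separate clutches, so p-values measure the spread between these pools.

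Of the 87 crystallin features, 53 were matched to a current symbol through a RefSeq table of GRCz12tu by accession, symbol, synonym or gene number, 6 kept the file's symbol and 28 had only a human name. That table was used only for names and gene order. Features were fitted with limma 3.58.1 (R 4.3.3; lmFit, eBayes, 2 residual and 2.92 prior degrees of freedom) over all features, two-sided, adjusted by Benjamini-Hochberg at 0.05. The fit was tested on simulated arrays with independent noise, which does not show how reliable the calls in these data are. Members, lists and named genes (all alpha features, all that passed, the brightest and most changed of each class) were chosen with earlier results of these data known; other features named in the text, celf1 among them, were chosen after their values were seen. The alternatives were quantile normalization, median centring, a filter at the 25th percentile of feature means, a variance trend, the replicate number as a block, each array left out, the authors' q-values, an adjusted p of 0.10 and 1 feature per gene. A lone remaining array is assumed to vary like the other genotype.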

Additional observations from a re-analysis of the deposited data

How the results depend on the processing

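Precision was limited by 2 arrays per genotype and, for 32 of 74 lens-class features, by low signal of which an unknown part is background. Of the 15 crystallin calls, 9 held in every setting other than an array left out in which they were tested. With the filter at the 25th percentile of feature means, 51 crystallin features were tested. Crystallin features passed less often than all features with the block (12.6% against 19.6%) and with the filter (19.6% against 25.7%). With the trend their share, 14.9%, was also below that of all features. Under quantile normalization (19.5% against 18.4%) and median centring (20.7% against 18.7%) their share was slightly higher. The total moved from 15 to between 11 and 18 under quantile normalization, median centring, the trend and the block, and to 10 with the filter. With an array left out it ran from 0 (either transgenic array) to 24 (wild-type replicate 2), with 0 to 8 higher and 0 to 16 lower, and by the authors' q-values it was 57, 27 higher and 30 lower, beside 67.7% of all features. The filter left 1 higher and, with the alpha class reduced to cryaa, an alpha median of -0.49. With 1 feature per gene 7 were lower. The lens genes past the threshold, 4 in all, became 0 to 7 with an array left out and 24 by the q-values. The retina and small heat shock genes, 3 in all, became 0 to 9 with an array left out, 14 by the q-values and 7 at an adjusted p of 0.10. Counting features of identical values once, a choice made after seeing the data, gave 14.

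Among the features named by the rule, the signs that reversed were of values that had not passed: a CRYBB1 feature under median centring (-0.01) and 4 features with an array left out. Both crygm2d9 features were also negative under quantile normalization and median centring, and centring turned the alpha (-0.01), beta (-0.02) and gamma M (-0.07) medians. Quantile normalization turned the alpha median too (-0.04), with the median over all features at -0.05. The beta (-0.02) and gamma M (-0.09) medians turned without wild-type replicate 2. The gamma M median turned without transgenic replicate 1 (-0.04), and the gamma median without transgenic replicate 2 (0.07). For crybb1 the range was -0.1 (median centring) to 0.04, above 0 without transgenic replicate 2 (0.04) or wild-type replicate 1 (0.02). The brightest CRYGB feature ran from -0.05 to 0.55 and LOC799965 from -0.04 to 0.54, both below 0 without wild-type replicate 2. For crygm2d3 the range was -0.04 to 0.41, below 0 without transgenic replicate 1 (-0.04) or wild-type replicate 2 (-0.02). Centring lowered every difference by the same amount, and the median over all features from 0.01 to -0.09. The cause of the other moves was not tested.

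Same-numbered arrays deviated together across features (r = 0.206 over 37176 features, which are not independent replicates). Array 1 exceeded array 2 in both genotypes for all 8 bright gamma M cluster features, the identical crygm2d21 features included, against 29.9% of all features. With 2 pairs of arrays this does not establish pairing. With the replicate block 11 crystallin features passed, 7 of them lower; the calls of the identical cryba1a pair, crybb3 and 1 hspb8 feature were lost (adjusted p = 0.055 for cryba1a and crybb3), as was that of caprin2 (adjusted p = 0.056).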
